A study of Rattus norvegicus with 11 samples.

Results

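The transcription factors that give the segments of the nephron their identity were followed in rat renal cortex: Hnf4a, Hnf4g, Pax2, Pax8, Tfcp2l1, Foxi1, Elf5 and Gata3. The members were every non-control probe on the array whose gene is 1 of these 8, which gave 10 of 30367 probes for 7 of the 8 genes, among 15168 genes that a probe names. All 10 passed the filter on dim probes (well above background on at least 2 of the 11 arrays), 1 of them, an Elf5 probe, only through Control+RYGB arrays, where it is highest. In the rat build GRCr8, RefSeq places Hnf4a at chr3:172606220-172667758, Pax8 at chr3:27584000-27641094, Elf5 at chr3:110264460-110291926 and Pax2 at chr1:253555447-253646623. Foxi1 lies at chr10:19310466-19314405, Tfcp2l1 at chr13:32286643-32346671, Gata3 at chr17:73544234-73575670 and Hnf4g at chr2:99792942-99943811. No probe was matched to Hnf4g. Tfcp2l1, Foxi1 and Elf5 have 2 probes each, and every probe is described, since the probes of a gene did not always move together.

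Single-colour arrays were hybridised with renal cortex RNA of Sprague Dawley (SD) rats in 4 groups. Rats were either controls or had type 1 diabetes (DM) induced by streptozotocin (STZ), which kills the insulin-producing beta cells of the pancreas, and 4 weeks later each was operated on, with a Sham procedure or with gastric bypass of the Roux-en-Y kind (RYGB), which routes food around most of the stomach and the upper bowel. Cortex was taken 4 weeks after surgery, so the groups are Control+Sham, DM+Sham and Control+RYGB with 3 arrays each, and DM+RYGB with 2. DM+Sham 2 and 3, and likewise Control+RYGB 2 and 3, differed by less than the noise of repeated spots and were each counted as 1 sample, which left n = 3 for Control+Sham and n = 2 for the other groups. The labels do not say that the arrays of a group come from separate animals, so p-values measure only the spread between these samples, which may be technical. STZ diabetes is a model of insulin lack rather than of insulin resistance.

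HNF4A and HNF4G are nuclear receptors that switch on the transport and metabolic genes of the proximal tubule, the segment that takes back most filtered glucose, amino acids and phosphate. PAX2 and PAX8 are paired-box factors that set up the renal epithelial lineage, and PAX8 stays on along the adult tubule. In the collecting duct, FOXI1 drives the acid- and base-secreting intercalated cells, TFCP2L1 acts in the patterning of intercalated and principal cells, ELF5 is a factor of the water- and sodium-handling principal cells, and GATA3 marks the collecting duct and the ureteric lineage it comes from. The question asked of the data was whether the regulators of the proximal tubule went down where its transporters went down, in DM+RYGB.

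Values are log2 processed signals minus the 75th percentile of each array, so that 0 is the signal of a probe at that percentile, and a difference of 1 is a 2-fold difference. The way arrays are scaled mattered in DM+RYGB: the median probe was 0.55 higher than in DM+Sham with this scaling, against -0.05 with median scaling and -0.07 with quantile normalization, and the share of higher calls moved from 79.6% to 37.2% and 37.6%. The words rose and fell are therefore kept for a probe whose adjusted p (limma, Benjamini-Hochberg over 28497 probes) was under 0.05 in the same direction under all 3 scalings, and the values printed are those of the 75th percentile unless another scaling is named. In the remaining comparisons the median probe moved by 0.03 (DM+Sham against Control+Sham), 0.29 (Control+RYGB against Control+Sham), 0.27 (DM+RYGB against Control+RYGB) and 0.59 (DM+RYGB against Control+Sham) with the 75th percentile, and by no more than 0.09 in size with the other scalings. Between 77.8% and 93.5% of the probes of an array lay well above background, no probe was saturated, and the number of arrays limits the precision. The Control+RYGB arrays share a barcode entry in the file headers that no other group has, and DM+RYGB 2 alone has a further entry. Group and entry therefore cannot be told apart in any comparison with Control+RYGB, the interaction included. No scan day held both Control+Sham and an array of a bypass group. The array DM+RYGB 2 stood apart. Its summed signal of 12 heart muscle genes, in units of the 75th percentile signal, was 338, against 0.64 to 1.20 in the other arrays. Most calls and counts that rest on DM+RYGB are therefore also given without it, with all 3 scalings repeated. DM+RYGB 1 is then alone and is assumed to vary like the other groups. The values go against that assumption: the 2 DM+RYGB arrays differed by a spread of 0.40. The other pairs of arrays counted as separate differed by 0.10 to 0.19. Adjusted p-values and counts of such a fit may therefore be too favourable. They do not show by themselves that a call holds without DM+RYGB 2. Without it, 11.1% of all probes rose and 12.1% fell after bypass in diabetic rats.

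The upstream one of 2 promoter windows of Hnf4a, the main proximal regulator among the members, is shown. The element AGATAA, which GATA factors can bind, was marked because Gata3 rose in the comparison in which Hnf4a fell. Whether Gata3 acts on Hnf4a was not tested. RefSeq (GRCr8) lists 2 start sites for rat Hnf4a, 35616 bases apart, and each window runs from 250 bases before to 50 bases after a start, on the forward strand. The upstream window is chr3:172605970-172606269 and the downstream window is chr3:172641586-172641885. The upstream window follows, 5′ to 3′, with the GATA element in capitals.
Hnf4a upstream start: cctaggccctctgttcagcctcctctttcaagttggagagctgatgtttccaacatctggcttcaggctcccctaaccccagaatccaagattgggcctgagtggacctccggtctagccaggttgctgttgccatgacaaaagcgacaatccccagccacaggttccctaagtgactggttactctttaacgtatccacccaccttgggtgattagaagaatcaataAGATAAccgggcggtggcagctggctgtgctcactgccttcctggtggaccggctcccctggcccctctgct
The motif searched was AGATAA on either strand, which reads TTATCT on the reverse. The upstream window holds it at 1 place, whose first base lies at -22 from the start, and the downstream window does not hold it. Of 33469 rat promoter windows of this length, 11.6% hold the motif at least at 1 place, and so do 3 of 33 windows of proximal tubule transporters (Slc13a1, Slc5a12 and Slc6a19). The array has 1 probe for Hnf4a and its signal does not say which start was used. None of the windows of Pax2, Pax8, Foxi1, Tfcp2l1 and Gata3 holds the motif, and the element AAAGTCCA, part of many HNF4 binding sites, is in none of the member windows and in 1.37% of all. A match of letters is a description of the window and not a site.

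Hnf4a was lowest in DM+RYGB. Its level was -1.52, -1.52 and -1.48 in Control+Sham 1 to 3, -1.22, -1.21 and -1.23 in DM+Sham, -1.16, -1.28 and -1.24 in Control+RYGB, and -1.76 and -2.23 in DM+RYGB. Both DM+RYGB arrays lay below all 9 others, and DM+Sham and Control+RYGB overlapped each other above Control+Sham. Such separations, here and for the genes below, only describe the arrays, since the share of all probes that show them is not given. The group means were -1.51 ± 0.022 (SD, n = 3) in Control+Sham, -1.21 ± 0.073 (SD, n = 2) in Control+RYGB and -1.99 ± 0.33 (SD, n = 2) in DM+RYGB, and -1.22 ± 0.0012 (SD, n = 2) in DM+Sham.

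After gastric bypass in diabetic rats, Hnf4a fell by 0.77 on the log2 scale (SE 0.16, adjusted p = 0.00826), a 1.71-fold drop, while the median probe of the array was 0.55 higher. Relative to that median the difference was -1.32. The fall was 1.37 with median scaling and 1.16 with quantile normalization. Within the only scan day that held both groups, the log2 difference between DM+RYGB 1 and DM+Sham 3 was -0.53. Without DM+RYGB 2 the difference was -0.54 and without DM+RYGB 1 it was -1.0. The call was lost with normexp background correction (-0.39, adjusted p = 0.264) and in a fit of these 2 groups alone (-0.77, adjusted p = 0.0813).

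Diabetes among bypass rats gave a like value, in a comparison that shares the DM+RYGB arrays: Hnf4a fell by 0.78 (SE 0.16, adjusted p = 0.0116), with -0.60 and -0.96 within the 2 scan days that held both groups and -0.55 (adjusted p = 0.00683) without DM+RYGB 2. In contrast, Hnf4a differed by 0.28 (SE 0.15, adjusted p = 0.228) between DM+Sham and Control+Sham and by 0.30 (SE 0.15, adjusted p = 0.161) between Control+RYGB and Control+Sham, neither of which passed. No array of Control+Sham reached those groups with the 75th percentile, but the difference between Control+RYGB and Control+Sham was -0.01 (adjusted p = 0.952) with median scaling and 0.15 (adjusted p = 0.5) with quantile normalization. Leaving out either DM+RYGB array, which lowers the spread the fit pools over groups, put both past the threshold (adjusted p = 0.0286 and 0.0234). The interaction, the effect of bypass in diabetic rats minus that in controls, was -1.07 (SE 0.22, adjusted p = 0.0158). So the effect of bypass on Hnf4a differed between diabetic and control rats in the fit of all arrays. The interaction was -0.84 without DM+RYGB 2. It no longer passed without DM+Sham 2 and 3 (adjusted p = 0.0579), without Control+RYGB 1 (0.0675), without Control+RYGB 2 and 3 (0.0576) or with normexp (-0.70, 0.197), and the call of diabetes among bypass rats was lost without Control+RYGB 1 (-0.73, adjusted p = 0.074) and without Control+RYGB 2 and 3 (-0.84, adjusted p = 0.0558). From Control+Sham to DM+RYGB, Hnf4a fell by 0.49 (SE 0.15, adjusted p = 0.0253), and leaving out any of the Control+Sham arrays put the adjusted p between 0.0571 and 0.0642. That fall was 0.25 (adjusted p = 0.0457) without DM+RYGB 2 and 0.72 (adjusted p = 0.00206) without DM+RYGB 1, and the call was lost with normexp (-0.14, adjusted p = 0.654), with scan day as a term (-0.34, adjusted p = 0.257) and in a fit of these 2 groups alone (-0.49, adjusted p = 0.0764).

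**Figure D1:**
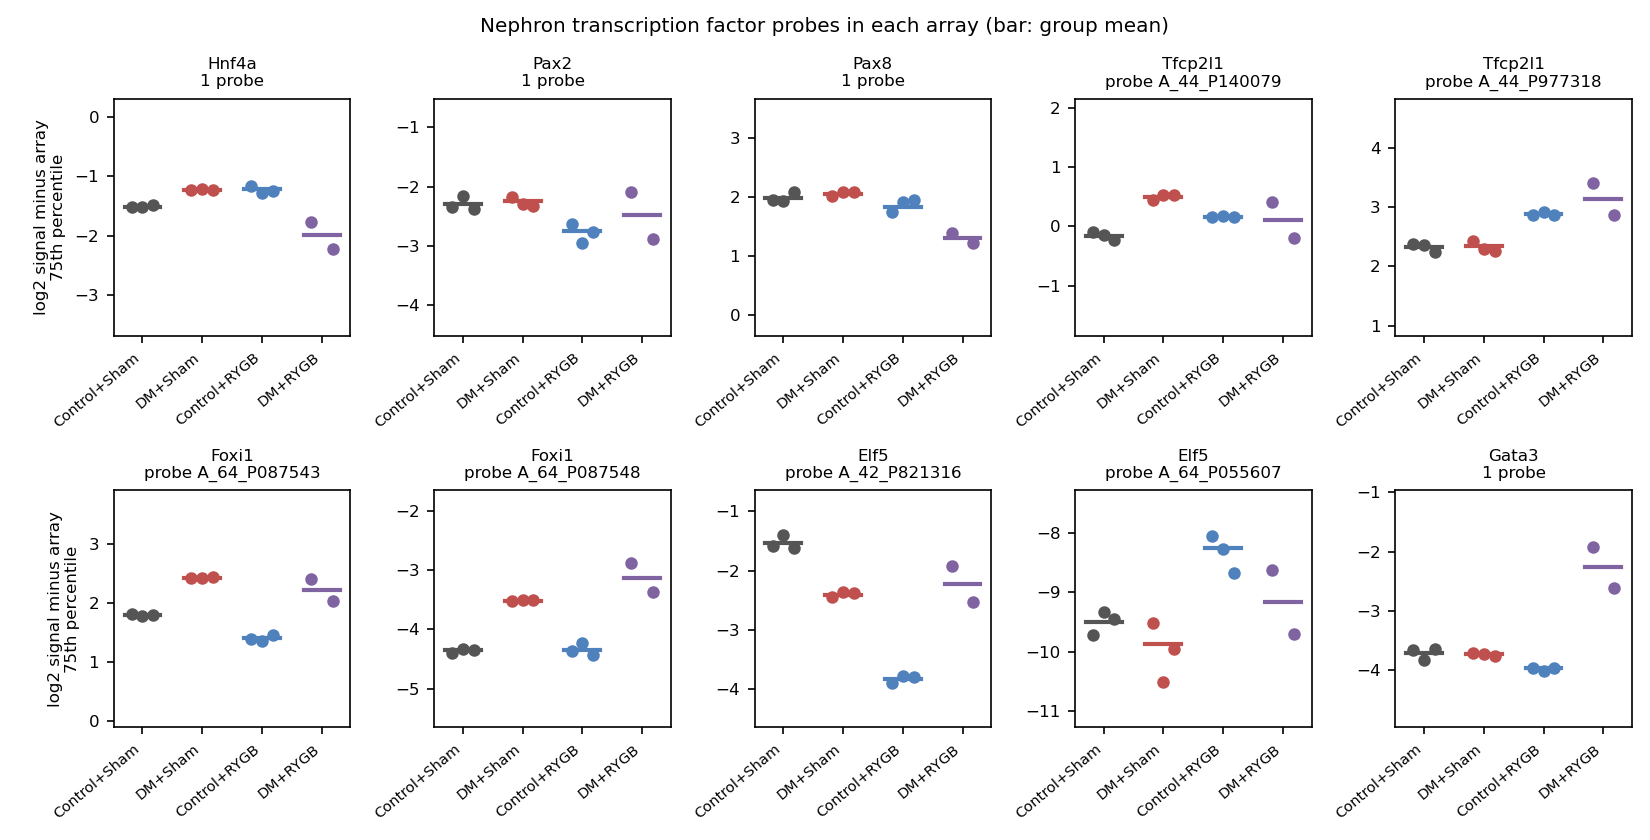
Each panel plots 1 probe, with the log2 signal minus the 75th percentile of the array on the vertical axis and the 4 groups on the horizontal axis; points are arrays and bars are group means after averaging of near-identical arrays. Hnf4a and Pax8 are lowest and Gata3 is highest in both DM+RYGB arrays, the first Elf5 probe is lowest in the Control+RYGB arrays, and the second Elf5 probe is highest in Control+RYGB by its mean of -8.26.

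Most transporters of the proximal tubule were reduced by more than Hnf4a in the same comparison, a difference in size that was not tested. Of 37 transporter genes tested, 28 fell and 1 rose after bypass in diabetic rats, with a median change of -1.58 against 0.55 over all probes, where 10.8% of the 28497 probes tested fell and 10.2% rose. Changes of 28 of the 37 lay below that of Hnf4a, whose own change was 0.81 above the transporter median. With quantile normalization 25 of 37 lay below it and the gap was 0.67. The list's median deviation from the Control+Sham mean was -1.21 in DM+RYGB 1 and -1.72 in DM+RYGB 2, against 0.49 to 0.63 in Control+RYGB and -0.13 to -0.04 in DM+Sham. In cortex, fewer proximal tubule cells and less RNA per cell cannot be told apart. In bypass-operated control rats 2 of the list rose (5.41%, against 6.73% of all probes) and 1 fell (2.70%, against 5.39%). Its median was 0.59 (0.29 over all probes). In diabetic sham rats 4 rose and 4 fell, 10.8% each, against 6.23% and 6.52% of all probes, with a median of -0.10. The counts without DM+RYGB 2 were 27 that fell and 2 that rose, with a median of -1.31.

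Slc4a4, the sodium bicarbonate cotransporter of the basolateral membrane, stood at 3.85, 3.82 and 3.71 in Control+Sham, 3.89, 4.02 and 4.00 in DM+Sham, 4.90, 4.77 and 4.89 in Control+RYGB, and -0.10 and 0.09 in DM+RYGB. Its fall of 3.96 (SE 0.12, adjusted p = 3.9e-05) was a 15.5-fold drop, and without DM+RYGB 2 it was 4.05. The glucose exit transporter Slc2a2 fell by 3.70 (SE 0.21, adjusted p = 0.00021) and the glucose cotransporter Slc5a2, the target of gliflozin drugs, by 1.48 (SE 0.22, adjusted p = 0.0029). They fell by 3.41 and 1.17 without DM+RYGB 2. The lactate transporter Slc5a12 fell most, by 4.13 (SE 0.25, adjusted p = 0.00026), and the organic anion exporter Abcc2 fell by 3.18 (SE 0.17, adjusted p = 0.00019). Without that array the latter values were 3.78 and 2.97. The phosphate transporter Slc34a1 differed by 0.45 (SE 0.35, adjusted p = 0.31) and the organic anion transporter Slc22a6 by -0.22 (SE 0.31, adjusted p = 0.57), and neither passed under all 3 scalings. For Slc34a1 the sign depended on the scaling and on the array (-0.15 with median scaling, -0.33 with quantile normalization, 0.95 with adjusted p = 0.0405 without DM+RYGB 2). For Slc22a6 the value was -0.82 (adjusted p = 0.0615) with median scaling, -0.81 (adjusted p = 0.0095) with quantile normalization, which passed, and 0.17 without DM+RYGB 2. The organic anion transporter Slco1a1 rose by 5.95 (SE 0.19, adjusted p = 4.5e-05), by 6.25 without DM+RYGB 2, and in DM+Sham against Control+Sham it fell by 9.12, with DM+RYGB between those groups.

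Slc22a8, which carries organic anions, fell by 2.0, and the neutral amino acid carriers Slc6a19 and Slc6a18 fell by 1.96 and 1.21. The 3 fell by 1.63, 1.61 and 0.90 without DM+RYGB 2.

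**Figure D2:**
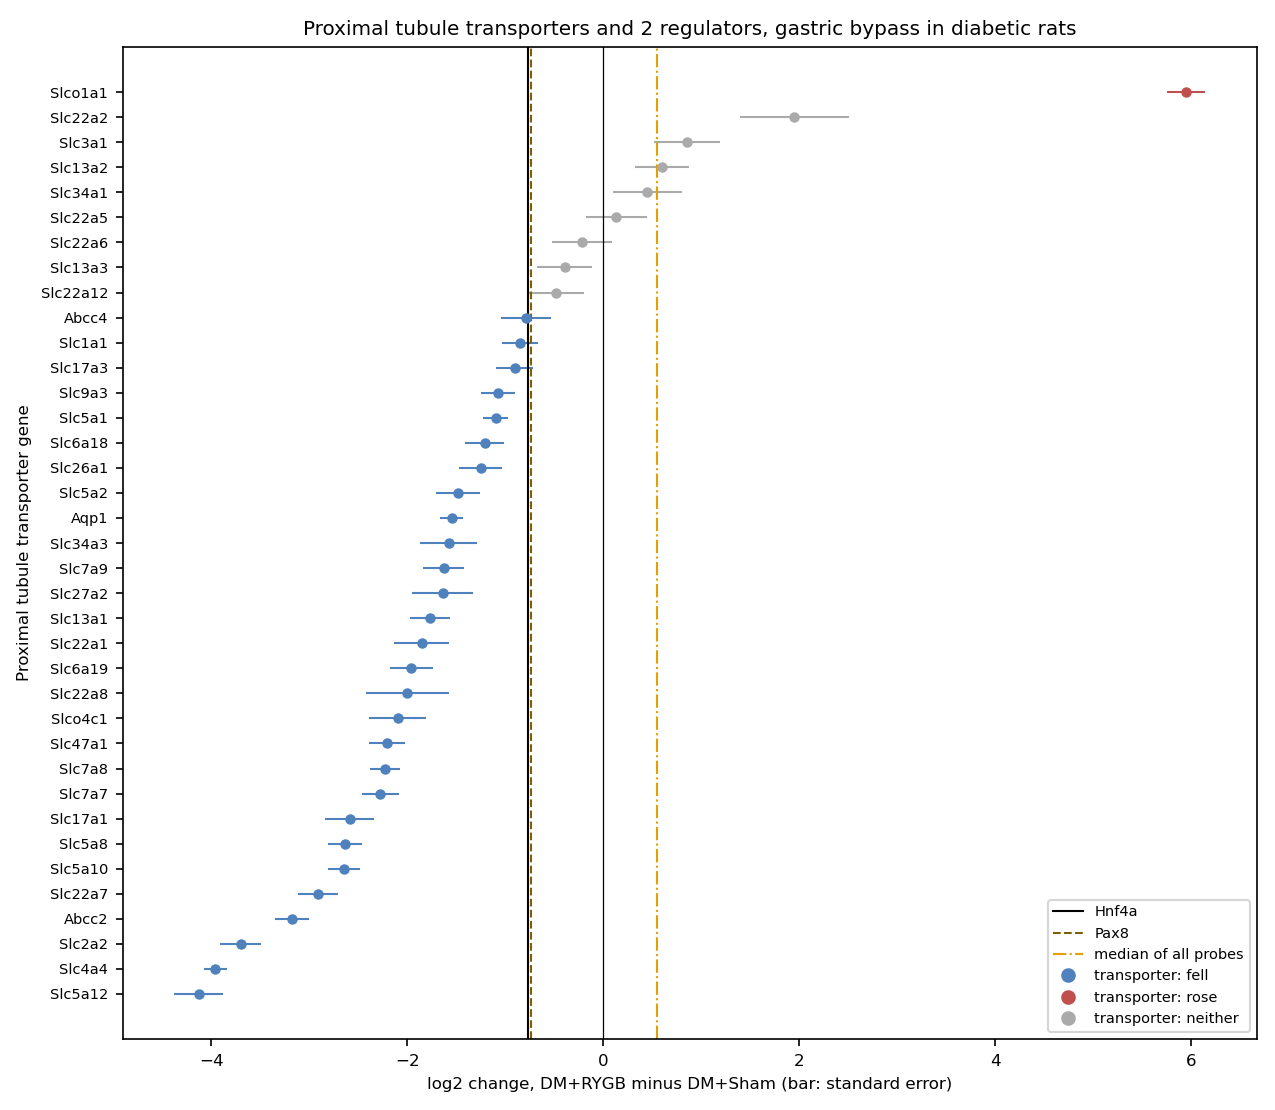
The change from DM+Sham to DM+RYGB of 37 proximal tubule transporters (points, with the standard error as bars; log2 scale on the horizontal axis, genes on the vertical axis) is set beside the changes of Hnf4a and Pax8 and the median of all probes (vertical lines). The lines of the 2 regulators lie at -0.77 and -0.74, to the right of 28 of the 37 transporters and to the left of the all-probe median of 0.55.

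Of 24 genes known from liver and kidney as HNF4A targets, 10 fell (41.7%, against 10.8% of all probes) after bypass in diabetic rats. Those that rose were 3 (12.5%, near the 10.2% of all probes), and the list's median was -0.10 (-0.49 with quantile normalization), against 0.55 over all probes. With DM+RYGB 2 left out, 8 fell and 4 rose, and the sign of the median turned to 0.21, with 0.60 over all probes. The bile acid enzymes Slc27a5 and Baat fell by 5.35 and 3.65 and the lipoprotein assembly factor Mttp by 2.70, while Fabp1, which binds fatty acids in the cell, rose by 2.87 and the nuclear receptor Nr1i3 by 2.10. In control rats, where Hnf4a did not pass, 7 of the 24 rose (29.2%, against 6.73% of all probes) and 0 fell (against 5.39%) after bypass by limma under all 3 scalings, with a median of 0.83 against 0.29 over all probes, Baat by 1.54 and Slc27a5 by 1.73 among them. This was not particular to the HNF4A targets. Of 12 liver markers, 8 rose (66.7%) and 1 fell after bypass in control rats, with a median of 1.62. The 29 further proximal tubule markers that are not transporters had 15 that fell and 2 that rose, with a median of -0.51, or 12 and 2 without DM+RYGB 2, with a median of -0.27. Among them the endocytosis receptor Cubn fell by 2.35 and the secreted peroxidase Gpx3 by 2.75. Lrp2, the partner of Cubn in endocytosis, differed by 0.14 (SE 0.42, adjusted p = 0.79). The lists overlap: G6pc1 is among those in both the HNF4A target and the proximal marker list, and Slc2a2 of the targets is also among the transporters. Apoa1 and Serpina1 of the targets are also liver markers.

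Pax8, the factor kept on along the adult tubule, was also lowest in DM+RYGB. Its level was 1.95, 1.92 and 2.09 in Control+Sham, 2.01, 2.08 and 2.07 in DM+Sham, 1.74, 1.91 and 1.95 in Control+RYGB, and 1.40 and 1.22 in DM+RYGB. Both DM+RYGB arrays lay below the other 9, whose groups overlapped. After bypass in diabetic rats Pax8 fell by 0.74 (SE 0.13, adjusted p = 0.00452), a 1.67-fold drop that was 1.34 with median and 0.84 with quantile scaling, and the log2 difference within the shared scan day was -0.68. It was -0.65 (adjusted p = 0.0104) without DM+RYGB 2, and in a fit of these 2 groups alone it missed the threshold (adjusted p = 0.054). Pax8 also fell from Control+Sham to DM+RYGB, by 0.68 (SE 0.12, adjusted p = 0.00333), and by 0.59 (adjusted p = 0.0102) without DM+RYGB 2. Between Control+RYGB and DM+RYGB the difference of -0.53 (SE 0.13, adjusted p = 0.0214) passed with the 75th percentile but not with quantile normalization (-0.42, adjusted p = 0.095). The interaction did not pass (-0.59, SE 0.17, adjusted p = 0.0519), and it passed without DM+RYGB 1 (-0.68, adjusted p = 0.0283).

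Pax2, its paralogue, which in the adult is kept mainly in the collecting duct, passed in none of the 6 comparisons with the 75th percentile. Its level was -2.34, -2.15 and -2.37 in Control+Sham, -2.18, -2.29 and -2.34 in DM+Sham, -2.62, -2.95 and -2.77 in Control+RYGB, and -2.09 and -2.88 in DM+RYGB. The DM+RYGB arrays lay on opposite sides of the sham groups, and their spread (SD 0.56, n = 2) exceeded the difference from DM+Sham of -0.24 (SE 0.25, adjusted p = 0.444). Without DM+RYGB 1 that difference was -0.63 (adjusted p = 0.0242), with median scaling it was -0.84 (adjusted p = 0.027) and with quantile normalization -0.68 (adjusted p = 0.076). Without DM+RYGB 2 it was 0.15 (adjusted p = 0.421), so that 1 array set its sign. Without that array diabetes among bypass rats gave 0.65 (adjusted p = 0.0243), against 0.26 (SE 0.25, adjusted p = 0.479) with it, and without either DM+RYGB array bypass in control rats passed (-0.45, adjusted p = 0.0332, against 0.177 with both).

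Foxi1, the intercalated cell factor, was higher in diabetic rats on both probes. On the brighter probe its level was 1.81, 1.78 and 1.80 in Control+Sham, 2.42, 2.42 and 2.43 in DM+Sham, 1.39, 1.36 and 1.46 in Control+RYGB, and 2.40 and 2.03 in DM+RYGB, so that no array of a diabetic group reached down to a control group. On the dimmer probe it was -4.40, -4.33 and -4.34, then -3.53, -3.51 and -3.50, then -4.36, -4.23 and -4.44, and -2.88 and -3.38 in the same order of groups, again without overlap between diabetic and control rats. How many of all probes separate the groups in this way is not given. In sham rats with diabetes Foxi1 rose by 0.63 (SE 0.13, adjusted p = 0.0186) on the brighter probe, with 0.65 and 0.62 within the shared scan days, and by 0.84 (SE 0.15, adjusted p = 0.0132) on the dimmer, with 0.80 and 0.83. Here 6.23% of all probes tested rose and 6.52% fell.

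These calls rested on small spreads and were lost when samples were left out: on the brighter probe without Control+Sham 1 (adjusted p = 0.0671), Control+Sham 2 (0.0642), DM+Sham 1 (0.0838) or DM+Sham 2 and 3 (0.112), and on the dimmer without Control+Sham 1 (0.0553), DM+Sham 1 (0.0614) or DM+Sham 2 and 3 (0.0888), while the difference stayed between 0.62 and 0.64 and between 0.82 and 0.86 whichever sample was left out. They were also lost with normexp (adjusted p = 0.142 and 0.956) and with scan day as a term (0.0562 and 0.0531). Among bypass rats, diabetes went with a rise of 1.22 (SE 0.17, adjusted p = 0.00271) on the dimmer probe, and of 1.23 from Control+Sham to DM+RYGB (SE 0.15, adjusted p = 0.00109), or 1.47 and 1.48 without DM+RYGB 2. From Control+Sham to DM+RYGB the brighter probe gave 0.42 (SE 0.13, adjusted p = 0.0248), but -0.26 with median scaling and 0.33 with quantile normalization. Neither of these 2 scalings passed. On the brighter probe diabetes among bypass rats gave 0.82 (SE 0.14, adjusted p = 0.0058), which missed the threshold with median scaling (0.45, adjusted p = 0.06), and without DM+RYGB 2 it rose under all 3 scalings, by 1.00 (adjusted p = 0.000889). With the 75th percentile, bypass itself did not pass on either probe in diabetic rats (-0.21, SE 0.14, adjusted p = 0.231 and 0.39, SE 0.17, adjusted p = 0.0872, the latter turning to -0.22 with median and -0.21 with quantile scaling) or in control rats (-0.40, SE 0.13, adjusted p = 0.0574 and 0.01, SE 0.15, adjusted p = 0.965). Both the scaling and the DM+RYGB arrays moved these calls. With median scaling the brighter probe was lower after bypass in diabetic rats (-0.81, adjusted p = 0.00442) and in control rats (-0.71, adjusted p = 0.0147), and with quantile normalization in control rats (-0.56, adjusted p = 0.0272); in control rats it passed in 12 of the 24 settings. In diabetic rats it gave -0.39 (adjusted p = 0.0138) without DM+RYGB 1 and -0.02 without DM+RYGB 2, and the dimmer gave 0.64 (adjusted p = 0.00335) without DM+RYGB 2, and without either array the brighter probe passed in control rats (adjusted p = 0.00917). Without DM+RYGB 2 the interaction passed too, at 0.37 (adjusted p = 0.0393) and 0.63 (adjusted p = 0.00942), against 0.19 (0.511) and 0.38 (0.274) with it.

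Of 18 genes of the intercalated cell tested, 5 rose in diabetic sham rats (27.8%, against 6.23% of all probes; median 0.68, against 0.03), among them the anion exchanger Slc4a1, by 0.92, and 11 rose with diabetes among bypass rats (61.1%, against 7.56% of all probes; median 1.17, against 0.27), among them the exchangers Slc26a4, by 1.95, and Slc4a9, by 2.0, and the proton pump subunit Atp6v1b1, by 1.07. Other cell lists had like shares in that comparison: 8 of 13 podocyte genes rose (median 1.05), 5 of 9 genes of the distal convoluted tubule (median 1.29) and 6 of 12 of the principal cell (median 1.18). Without DM+RYGB 2 the median of the intercalated list in that comparison was 1.52, against 0.34 over all probes. In diabetic rats bypass was followed by a rise of 6 of the 18 (33.3%, against 10.2% of all probes), with Slc26a4 up by 1.49 and Atp6v1b1 by 1.45. A fall of 2 (11.1%) was near the 10.8% of all probes. The list's median was 0.74, against 0.55 over all probes, and without DM+RYGB 2 it was 1.12, against 0.60. The list's median deviation from Control+Sham was 0.68 to 0.69 in DM+Sham, 0.12 to 0.17 in Control+RYGB, and 1.72 and 1.01 in DM+RYGB. Its part in the change of Foxi1 was not tested.

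Tfcp2l1, which patterns the collecting duct, gave different answers on its 2 probes. Probe A_44_P140079 read -0.10, -0.14 and -0.24 in Control+Sham, 0.44, 0.53 and 0.54 in DM+Sham, 0.15, 0.17 and 0.16 in Control+RYGB, and 0.41 and -0.19 in DM+RYGB. Probe A_44_P977318 read 2.38, 2.37 and 2.24, then 2.42, 2.29 and 2.27, then 2.87, 2.92 and 2.86, and 3.42 and 2.87. The first was highest in DM+Sham without overlap with the control groups, and the second did not separate the sham groups and was higher in both bypass groups. For diabetes in sham rats they gave 0.65 (SE 0.18, adjusted p = 0.0491) and 0.02 (SE 0.17, adjusted p = 0.946), and for bypass in diabetic rats -0.38 (SE 0.19, adjusted p = 0.133) and 0.79 (SE 0.19, adjusted p = 0.0126). With all arrays, neither probe passed under all 3 scalings in any comparison. With median scaling the first gave 0.57 (adjusted p = 0.082) for diabetes in sham rats and -0.98 (adjusted p = 0.00737) for bypass in diabetic rats, and the second gave 0.19 (adjusted p = 0.42) for the latter. Each DM+RYGB array moved the values for bypass in diabetic rats: the first probe gave -0.08 (adjusted p = 0.505) without DM+RYGB 2 and -0.68 (adjusted p = 0.00524) without DM+RYGB 1, and the second 1.07 (adjusted p = 0.0019) and 0.52 (adjusted p = 0.0169). Without DM+RYGB 2 the first probe rose with diabetes in sham rats under all 3 scalings (0.65, adjusted p = 0.0035).

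Gata3 was the only member that rose after bypass in diabetic rats under all 3 scalings. Its level was -3.66, -3.83 and -3.65 in Control+Sham, -3.70, -3.72 and -3.77 in DM+Sham, -3.96, -4.01 and -3.96 in Control+RYGB, and -1.92 and -2.61 in DM+RYGB. Both DM+RYGB arrays lay above the other 9. After bypass in diabetic rats Gata3 rose by 1.46 (SE 0.22, adjusted p = 0.00268), a 2.75-fold rise, which was 0.85 with median scaling and 0.98 with quantile normalization, and the log2 difference within the shared scan day was 1.84. Without DM+RYGB 2 it was 1.80 and without DM+RYGB 1 it was 1.12. With diabetes among bypass rats Gata3 rose by 1.70 (SE 0.22, adjusted p = 0.00207), with 2.03 and 1.38 within the shared scan days, and from Control+Sham to DM+RYGB it rose by 1.45 (SE 0.20, adjusted p = 0.00146), or by 2.04 and 1.79 without DM+RYGB 2. Diabetes in sham rats (-0.01, SE 0.20, adjusted p = 0.979) and bypass in control rats (-0.26, SE 0.20, adjusted p = 0.352) did not pass, and the interaction was 1.71 (SE 0.29, adjusted p = 0.00888), lost only with normexp (1.89, adjusted p = 0.0932) among the settings tried.

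Gata2, the relative of Gata3 that is active in the collecting duct and the endothelium, rose by 1.39 (SE 0.10, adjusted p = 0.00043) in the same comparison, from -4.06, -4.04 and -3.99 in DM+Sham to -2.62 and -2.66 in DM+RYGB, and by 1.41 without DM+RYGB 2. Of 12 principal cell markers, 2 rose (16.7%, against 10.2% of all probes) and 1 fell (8.33%, against 10.8%) after bypass in diabetic rats, shares near those of all probes, with a median of 0.77 against 0.55: the potassium channel subunit Kcne1 rose by 3.01, the mineralocorticoid receptor Nr3c2 by 1.17, and the hormone Stc1 fell by 0.42. That these shares were near those of all probes was read from the fit of all arrays only. When DM+RYGB 2 was left out, the list's median was 1.096, against 0.603 over all probes. The list then lay further above all probes than with both DM+RYGB arrays. The water channel Aqp2 differed by 0.27 (SE 0.35, adjusted p = 0.531), with the sign turned by quantile normalization (-0.62, adjusted p = 0.00965). Gata3 is also expressed by T lymphocytes, mesangial cells and urothelium, and the lists of these cells hold it. Without it, the median deviation from Control+Sham in DM+RYGB 1 and 2 was 0.56 and 0.47 for 12 T lymphocyte genes, -0.42 and -0.02 for 11 mesangial and fibroblast genes and -1.56 and -2.12 for 9 urothelial genes, against 1.51 and 0.93 for the principal cell list. Other lists lay as high in these arrays, at 1.72 and 1.01 for intercalated cells, 1.70 and 1.18 for the distal convoluted tubule and 1.65 and 1.16 for podocytes. Summed in units of the 75th percentile signal, the T lymphocyte genes lay between 1.19 and 1.50 in DM+RYGB, 1.20 and 1.33 in Control+Sham, 1.01 and 1.04 in DM+Sham and 1.36 and 1.54 in Control+RYGB, and the mesangial and fibroblast genes between 16.6 and 18.1, 16.8 and 17.9, 14.8 and 15.3, and 19.7 and 21.4 in that order of groups. The part of these cells in the result was not tested.

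Elf5, the principal cell factor, was lowest in bypass-operated control rats on its bright probe. Probe A_42_P821316 read -1.58, -1.40 and -1.62 in Control+Sham, -2.45, -2.35 and -2.38 in DM+Sham, -3.89, -3.78 and -3.79 in Control+RYGB, and -1.92 and -2.52 in DM+RYGB. Control+Sham was highest and Control+RYGB lowest, and DM+Sham and DM+RYGB overlapped between them. After bypass in control rats it fell by 2.30 (SE 0.18, adjusted p = 0.000996), a 4.93-fold drop, where 6.73% of all probes tested rose and 5.39% fell. In diabetic rats bypass gave 0.19 (SE 0.20, adjusted p = 0.453), or 0.49 without DM+RYGB 2, and -0.42 with median and -0.22 with quantile scaling. The interaction was 2.49 (SE 0.27, adjusted p = 0.0022), so the effect of bypass differed between control and diabetic rats in the fit of all arrays. The interaction was 2.79 without DM+RYGB 2. No scan day held both Control+RYGB and Control+Sham. The 3 Control+RYGB arrays also share a barcode entry in the file headers that no other group has, so group and this entry cannot be told apart. With scan day as a term the difference was -2.20 (adjusted p = 0.0654), and with normexp it was -1.99 (adjusted p = 0.0722).

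Diabetes went with opposite changes of this probe under the 2 operations. In sham rats it fell by 0.87 (SE 0.18, adjusted p = 0.022), with -1.05 and -0.73 within the shared scan days. This call was lost without Control+Sham 1 (adjusted p = 0.0694) or Control+Sham 2 (0.0754). Normexp, scan day as a term, or leaving out DM+Sham 1 or DM+Sham 2 and 3 also lost it, so the probe passed in 18 of the 24 settings. Among bypass rats it rose by 1.61 (SE 0.20, adjusted p = 0.00201), with 1.97 and 1.26 within the shared scan days, and this passed in all 24 settings tried, with 1.91 without DM+RYGB 2. The 2 bypass groups also differ in the barcode entry, which none of the settings takes out. From Control+Sham to DM+RYGB it fell by 0.69 (SE 0.18, adjusted p = 0.0167), or by 0.39 (adjusted p = 0.0367) without DM+RYGB 2. This call was lost without Control+Sham 2 (-0.62, adjusted p = 0.0514), with normexp (-0.21, adjusted p = 0.571), with scan day as a term (-0.64, adjusted p = 0.217), with the shared scan as a term (-0.47, adjusted p = 0.0553) and in a fit of these 2 groups alone (adjusted p = 0.0508). Of 12 principal cell markers, 1 rose (Stc1) and 1 fell (the basolateral water channel Aqp4) after bypass in control rats. These shares of 8.33% each were near the 6.73% and 5.39% of all probes, and the median was 0.09. In diabetic sham rats 3 rose, the sodium channel subunits Scnn1a and Scnn1b and Stc1 (25%, against 6.23% of all probes). Kcne1 fell (8.33%, against 6.52%), and the median was 0.39.

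The other Elf5 probe, A_64_P055607, was well above background only on 2 of the 3 Control+RYGB arrays. Its signal read -8.05, -8.27 and -8.68 in Control+RYGB, -9.72, -9.34 and -9.46 in Control+Sham, -9.52, -10.51 and -9.95 in DM+Sham, and -8.62 and -9.70 in DM+RYGB. Its mean in Control+RYGB was -8.26 against a measured -9.50 in Control+Sham. Set against a ceiling for the dim group, that mean was 1.25-fold higher for Control+Sham, 2.37-fold for DM+Sham and 1.20-fold for DM+RYGB. The mean includes a Control+RYGB array that was not well above background, and DM+RYGB 1 at -8.62 lay above Control+RYGB 3 at -8.68. The probe was not well above background on any array of the other 3 groups and passed the filter only through the group where it is high, so its fitted difference from Control+Sham (adjusted p = 0.0454, and 0.076 and 0.057 with median and quantile scaling) is not used as a result. Each ratio compares the Control+RYGB mean with a ceiling for the dim group: in every array, either the probe's signal or, if higher, that of the dimmest probe well above background. That ceiling is not a strict upper limit, so the ratios only describe the arrays and are not used as a result either.

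Of 10 urothelial genes tested, 6 fell in each of the 3 comparisons in which the bright Elf5 probe fell, all with Control+Sham as the reference, and the other 4 did not pass, apart from Gata3, which rose in 1 of them. From Control+Sham to DM+RYGB the median was -1.62 (11.8% of all probes fell), after bypass in control rats -1.76 (5.39%) and in diabetic sham rats -2.31 (6.52%). In the last 2 comparisons those that fell were the uroplakins Upk1a, Upk1b, Upk2 and Upk3a and the keratins Krt15 and Krt20. In the interaction 7 of 10 rose, Gata3 among them, where 6.52% of all probes rose. The list without Gata3 summed to 8.98 to 11.2 in Control+Sham, 5.50 to 5.67 in DM+Sham, 7.95 to 8.37 in Control+RYGB and 3.03 to 4.56 in DM+RYGB, in units of the 75th percentile signal. Its median deviation from the Control+Sham mean was -2.80 to -2.62 in DM+Sham, -2.79 to -2.58 in Control+RYGB, and -1.56 and -2.12 in DM+RYGB, so the sum and the median order the groups differently. Upk1b, on the brighter of its 2 probes, had group means of -0.05 in Control+Sham, -1.89 in DM+RYGB, -2.86 in DM+Sham and -3.50 in Control+RYGB, the order of the bright Elf5 probe. The list did not share this order throughout. Krt20 was highest in DM+RYGB, with a mean of -4.96 against -5.75 in Control+Sham, and lowest in DM+Sham, at -7.65. Mammary and skin epithelium, where Elf5 is also known to act, was represented by 5 genes besides Elf5, whose sum lay between 0.085 and 0.216 of the 75th percentile signal in all arrays. The part of these cells in the change of Elf5 was not tested.

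**Figure D3:**
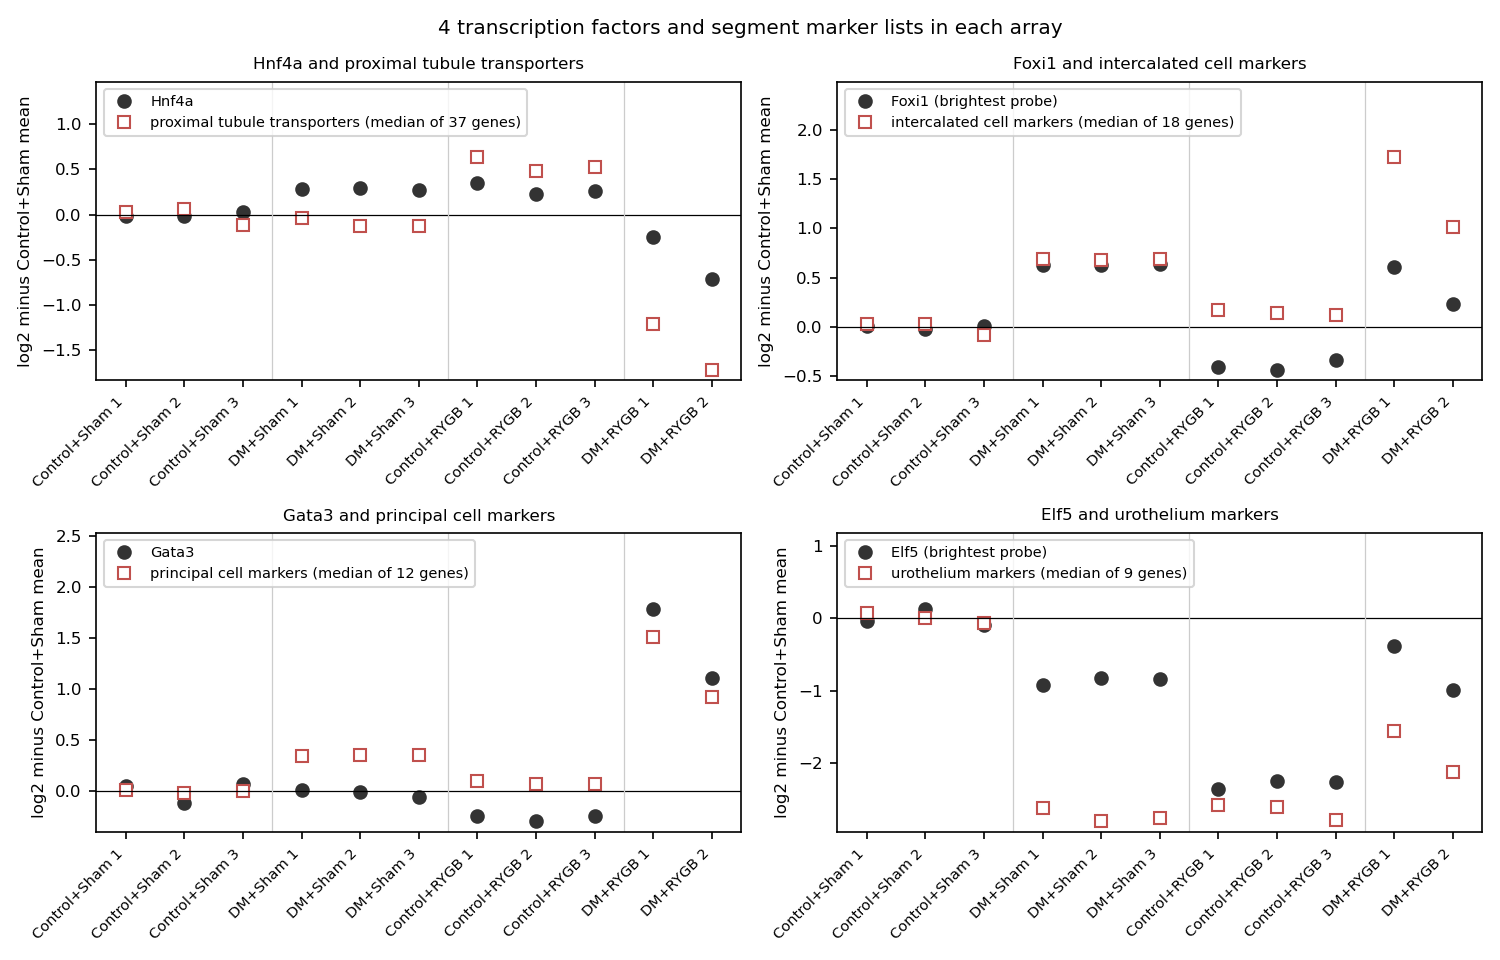
For each of the 11 arrays (horizontal axis), the log2 level minus the Control+Sham mean (vertical axis) is plotted for a transcription factor (filled circles) and as the median over genes of a marker list (open squares). Hnf4a and the transporters are both low in DM+RYGB, Foxi1 and the intercalated list are both high in DM+Sham, Gata3 and the principal cell list are both high in DM+RYGB, and Elf5 and the urothelium list are both low in Control+RYGB. Factor and list part in other groups. In DM+RYGB the intercalated list is at 1.72 and 1.01, against a Foxi1 mean of 0.42. The urothelium list is about as low in DM+Sham (-2.80 to -2.62) as in Control+RYGB (-2.79 to -2.58), against Elf5 means of -0.87 and -2.30.

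Of 32 other transcription factors of the nephron, 7 fell (21.9%, against 10.8% of all probes) and 3 rose (9.38%, near the 10.2% of all probes) after bypass in diabetic rats, with a median of 0.24, against 0.55 over all probes. Leaving out DM+RYGB 2 gave 6 that fell and 5 that rose, with a median of 0.57 against 0.60. Among those that fell were Osr2 by 1.44, the proximal factor Maf by 1.23, the bile acid receptor Nr1h4 by 0.97, Elf3 by 0.85, the fatty acid regulator Ppara by 0.76 and Klf15 by 0.69, and those that rose were Lhx1 by 1.60, Gata2 by 1.39 and Nr3c2 by 1.17. With normexp the sign of Osr2 turned (0.31). Diabetes in sham rats was followed by a rise of 4 of the 32 (12.5%, against 6.23% of all probes), Esrrg, Ppargc1a and Klf15 among them, and in bypass rats by a rise of 7 (21.9%, against 7.56%) and a fall of 6 (18.8%, against 9.8%).

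For each member's brightest probe, the genes with the most similar course over the 9 samples were found by the root mean square difference of log2 values, each relative to its Control+Sham mean, among 9862 named genes with an SD over samples of at least 0.3. The closest to Hnf4a were Tprn, Mob3b and Slc25a17, at 0.07 to 0.08, and the closest to Pax8 were Dph6, Comtd1 and Itfg1, at 0.08 to 0.09. For Foxi1 they were Mpnd, Slc18a2 and Prkrip1, at 0.08 to 0.10, for Gata3 Lrtm2, Raver2 and Sytl5, at 0.07 to 0.13, and for Tfcp2l1 Snx29, Csgalnact1 and Tsc22d3, at 0.09 to 0.10. Pax2 had Fam234a, Col9a2 and Cfap210, at 0.10 to 0.14. For Elf5, whose values had an SD of 0.91 over the samples, they were S100a6, Nkd2 and Wnt7b, at 0.32 to 0.33. Genes of similar course are named as a description of these 9 samples.

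Counted over all comparisons, the shares of member probes that passed are set beside those of all probes tested. With the 75th percentile alone, 4 of 10 member probes passed for diabetes in sham rats (17.3% of all probes tested), 4 for bypass in diabetic rats (52.8%), 2 for bypass in control rats (26.8%; 1 of the 2 is the dim Elf5 probe, which rests on the group where it is high), 6 for diabetes among bypass rats (31.3%), 7 for DM+RYGB against Control+Sham (60.8%) and 3 for the interaction (22.4%). Under all 3 scalings, both Foxi1 probes rose and the bright Elf5 probe fell for diabetes in sham rats (6.23% and 6.52% of all probes), Gata3 rose and Hnf4a and Pax8 fell for bypass in diabetic rats (10.2% and 10.8%), and the bright Elf5 probe fell for bypass in control rats (5.39%, with 6.73% that rose). For diabetes among bypass rats 3 rose (the dimmer Foxi1 probe, the bright Elf5 probe and Gata3) and Hnf4a fell, where 7.56% of all probes rose and 9.8% fell. From Control+Sham to DM+RYGB the dimmer Foxi1 probe and Gata3 rose and Hnf4a, Pax8 and the bright Elf5 probe fell, where 11.8% of all probes rose and 11.8% fell, and in the interaction the bright Elf5 probe and Gata3 rose and Hnf4a fell, where 6.52% rose and 8.26% fell. The comparisons share groups, so these counts are not independent of each other.

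**Figure D4:**
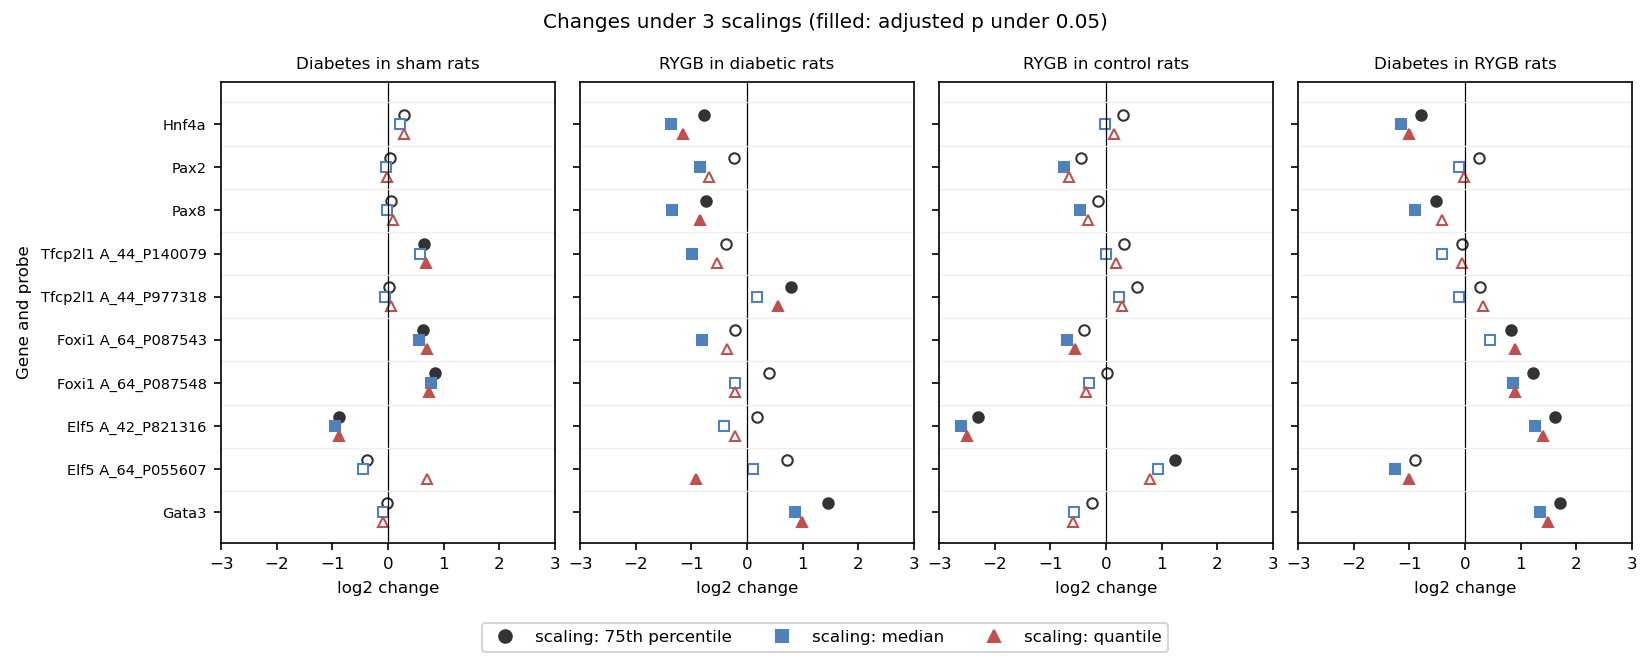
The log2 change (horizontal axis) of each of the 10 member probes (vertical axis) is plotted for 4 comparisons (panels), with circles for the 75th percentile, squares for median scaling and triangles for quantile normalization; filled symbols have an adjusted p under 0.05. Hnf4a, Pax8 and Gata3 are filled under all 3 scalings for bypass in diabetic rats, while Pax2, the brighter Foxi1 probe (A_64_P087543), both Tfcp2l1 probes and the dim Elf5 probe are filled under only some of them.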

How the data were processed

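Renal cortex RNA was measured on Agilent single-colour rat arrays. Per the file headers, the deposited scanner files were made with Agilent Feature Extraction 11.0.1.1 and hold processed signal intensity per spot, background-subtracted by that software, with 44254 spots per array. A deposited table of the same arrays holds log2 values with each column centred near 7.07; how its arrays were scaled is not given in the sources used here, and it served as an alternative. Control spots (1377) were left out, spots of a probe averaged, and log2 intensity taken relative to each array's 75th percentile, a signal of 1541 to 4454. Of 30367 probes, 28497 (well above background on 2 or more arrays) were fitted on 4 group means with limma 3.58.1 in R 4.3.3; arrays closer than spot noise were averaged first (9 samples, 5 residual degrees of freedom). Median and quantile scaling were required to give the same call at 0.05. Gene symbols were looked up in RefSeq from the transcript identifier or gene name in the files (18005 probes have 1). Lists used 1 probe per gene, the brightest. Promoter sequences are RefSeq's. The promoter motifs were chosen after values were seen, and some genes are not reported here. Genes named besides the members were a fixed set and up to 4 genes per list with the smallest p after bypass in diabetic rats; others were named after their values were seen, to spell out a count. Members and lists were chosen with earlier results of these data known. The alternatives were other scalings, background correction (normexp, offset 50), filters, blocks, weights and left-out samples. Tests were checked on simulated data.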

Additional observations from a re-analysis of the deposited data

Results flagged for a closer look

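For 3 probes the effect of gastric bypass differed between diabetic and control rats by the interaction term of limma, with Benjamini-Hochberg adjusted p-values over 28497 probes. For Hnf4a the difference of effects was -1.07 (SE 0.22, adjusted p = 0.0158), from -0.77 in diabetic and 0.30 in control rats. For Elf5, probe A_42_P821316, it was 2.49 (SE 0.27, adjusted p = 0.0022), from 0.19 in diabetic and -2.30 in control rats. For Gata3 it was 1.71 (SE 0.29, adjusted p = 0.00888), from 1.46 in diabetic and -0.26 in control rats. All 3 share the same DM+RYGB, DM+Sham, Control+RYGB and Control+Sham arrays. No group has the 4 samples needed to look for an array far from the others within its group.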

How the results depend on the processing

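Over 24 settings, Gata3 kept its calls for bypass in diabetic rats, diabetes among bypass rats and DM+RYGB against Control+Sham, with 0.85 to 1.80 for the first. The number of the 10 member probes with an adjusted p under 0.05 moved with several settings. With normexp it was 0 for diabetes in sham rats (4 in the fit as reported), 2 for bypass in diabetic rats (4), 0 for bypass in control rats (2), 3 for diabetes among bypass rats (6), 4 for DM+RYGB against Control+Sham (7) and 1 for the interaction (3). With only the groups compared it was 1, 7, 2 and 4 for bypass in diabetic rats, bypass in control rats, diabetes among bypass rats and DM+RYGB against Control+Sham. With scan day as a block it was 0 for diabetes in sham rats, 0 for bypass in control rats and 2 for DM+RYGB against Control+Sham. With 1 probe per gene it was 2 for diabetes in sham rats and 1 for bypass in control rats, fewer probes being counted. For bypass in control rats it was 4 with median scaling, 1 without a filter on dim probes, 4 with 11 separate arrays, 4 with the replicate number as a block, 6 with the shared scan as a term and 8 with array weights. For the interaction it was 5 with median scaling, with 11 separate arrays, with the replicate block and with the shared scan. Leaving out 1 sample at a time gave 0 to 5, 3 to 7, 1 to 7, 4 to 8, 4 to 8 and 2 to 6 in the order of the 6 comparisons. Hnf4a after bypass in diabetic rats was -0.39 with normexp and -0.77 (adjusted p = 0.0813) with only these groups, and -1.0 to -0.54 with samples left out. The transporter median of -1.58 was -2.18 with median scaling, -2.11 with the deposited table and -1.90 to -1.31 with samples left out. Signs turned for Foxi1 probe A_64_P087543 in DM+RYGB against Control+Sham with median scaling (-0.26), for Elf5 probe A_64_P055607 with quantile normalization after bypass in diabetic rats (-0.92) and with normexp after bypass in control rats (-0.31), and, after bypass in diabetic rats, for Aqp2 with quantile normalization (-0.62) and the deposited table (-0.68), and for Osr2 with normexp (0.31). The cause was not tested. Whether replicate numbers pair the arrays was not settled. Of 15 pairs with the same number, 5 had a correlation of deviations over 0.1 (range -0.379 to 0.450), against 7 of 30 pairs with different numbers. Deviations from a mean cancel within groups this small, so these correlations are tied to each other and cannot decide it. Signal over background limits the dim Elf5 probe.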
